A study of Mus musculus with 88 samples.

Results

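The 33 genes described here make, sense, store, move and export cholesterol. They were chosen by name and matched by Ensembl identifier (GRCm38) in 3 tables of bulk RNA-seq, which list 48811 genes in all. Of the 33 genes, 20 encode enzymes of the synthesis pathway, 5 encode the proteins that sense sterol level and 8 act in transport, storage and export. All 33 were measured in the medial prefrontal cortex (mPFC), the bed nucleus of the stria terminalis (BNST) and the ventral hippocampus (vHPC), and all 33 passed the filters on low values.

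The samples were 88 libraries from male mice of the strains C57BL/6Crl (B6) and DBA/2Crl (D2), dissected at 8 weeks of age, 6 to 8 days after the last session of chronic social defeat stress (CSDS). In CSDS a mouse is repeatedly attacked by an aggressor of another strain and housed beside it. Over the same days control mice were kept in pairs, divided by a wall, and were not defeated. All mice were then housed singly until dissection. Defeated mice were called resilient or susceptible from a social avoidance test scored against controls of their own strain. For the mPFC, B6 groups held 6 mice each, and D2 groups 6 controls and 8 susceptible mice. For the BNST all groups held 5 mice, except resilient D2 mice with 3. For the vHPC, B6 groups held 6 controls, 8 resilient and 3 susceptible mice, and D2 groups 6 controls and 5 susceptible mice. Each library came from a single mouse, and for 7 mice both mPFC and vHPC were sequenced. Resilient D2 mice were sequenced for the BNST only.

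The adult brain makes nearly all of its own cholesterol, because lipoprotein particles of the blood do not pass the blood-brain barrier. Cells build it from acetyl-CoA through mevalonate, farnesyl diphosphate, squalene and lanosterol. When sterol falls in the membrane of the endoplasmic reticulum, SCAP escorts SREBP to the Golgi, where it is cut and released to switch on the genes of synthesis, whereas INSIG proteins hold the complex back when sterol is plentiful. Surplus cholesterol is esterified, handed to lipoprotein particles by ABC transporters, or, in neurons, hydroxylated so that it can leave the brain. Myelinating oligodendrocytes (OLGs) need large amounts of it.

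The libraries were first checked against markers of their tissue. Slc17a7, the vesicular glutamate transporter of cortical and hippocampal neurons, ranged from 7.31 to 8.04 log2 CPM in the mPFC and from 9.06 to 9.57 in the vHPC, and Prox1, a transcription factor of dentate granule cells, from 5.59 to 6.53 in the vHPC. In the BNST, Slc17a7 ranged from -3.11 to 9.01 and Ppp1r1b, a phosphoprotein of striatal neurons, from 6.14 to 11.4. The mean of 4 excitatory markers stood at 5.17, 6.87 and 6.71 in B6 resilient replicates 2, 3 and 5 of the BNST and at 5.72 in D2 susceptible replicate 1, above all other BNST libraries. No member passed a stress comparison of the BNST with or without any of these 4 libraries. BNST libraries held 11825757 to 25793910 reads assigned to genes (median 15273698). Depth of the other 2 regions is not in the tables used here. As tissue was sequenced in bulk, fewer cells of a type and less RNA per cell cannot be told apart.

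Promoters were read from RefSeq. Those of Hmgcs1, Ggps1, Srebf2 and Soat1 are shown, because each was called in at least 1 comparison below and stands for another step: the entry to synthesis, the prenyl branch, sterol sensing and storage. They were picked after their values were seen. SREBP binds sterol regulatory elements next to boxes for the factor NF-Y, whose core is CCAAT. A window of 250 bases before and 50 bases after each start was searched on both strands for CCAAT and for TCACNCCAC, a form of the sterol regulatory element. The table held 35 windows for 27 of the 33 members. The windows are given 5′ to 3′ on the strand of the gene (GRCm38.p6), with matches to either motif in capitals.
Hmgcs1: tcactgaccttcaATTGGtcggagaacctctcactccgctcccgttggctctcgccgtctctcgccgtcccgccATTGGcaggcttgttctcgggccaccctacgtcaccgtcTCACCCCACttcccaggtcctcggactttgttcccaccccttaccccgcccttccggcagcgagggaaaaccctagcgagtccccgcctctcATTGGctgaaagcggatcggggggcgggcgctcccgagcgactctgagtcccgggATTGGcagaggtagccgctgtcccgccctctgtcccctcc
Ggps1: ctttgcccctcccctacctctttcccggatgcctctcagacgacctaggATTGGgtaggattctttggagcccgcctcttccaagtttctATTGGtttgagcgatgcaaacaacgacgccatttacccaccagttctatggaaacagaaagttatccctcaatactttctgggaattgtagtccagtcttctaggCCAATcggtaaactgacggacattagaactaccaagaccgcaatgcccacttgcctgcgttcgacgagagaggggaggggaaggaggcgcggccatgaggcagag
Srebf2: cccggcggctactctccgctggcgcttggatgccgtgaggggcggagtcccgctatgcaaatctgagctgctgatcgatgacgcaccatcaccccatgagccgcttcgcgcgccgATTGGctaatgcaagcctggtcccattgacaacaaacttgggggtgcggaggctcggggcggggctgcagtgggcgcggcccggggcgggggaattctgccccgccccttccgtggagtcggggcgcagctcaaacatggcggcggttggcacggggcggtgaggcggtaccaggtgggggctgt
Soat1: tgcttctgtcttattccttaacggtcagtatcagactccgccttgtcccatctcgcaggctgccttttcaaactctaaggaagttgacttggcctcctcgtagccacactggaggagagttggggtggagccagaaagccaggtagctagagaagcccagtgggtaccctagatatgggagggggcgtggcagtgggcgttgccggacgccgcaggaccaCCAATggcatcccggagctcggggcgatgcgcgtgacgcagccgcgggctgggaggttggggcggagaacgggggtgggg

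The genes lie at chr13:119690379-119708260 (Hmgcs1), chr13:14050659-14063488 (Ggps1), chr15:82147181-82205379 (Srebf2) and chr1:156424525-156474331 (Soat1), and each window spans the start of the gene. The Hmgcs1 window, chr13:119690101-119690400 on the plus strand, held 4 CCAAT matches and the single TCACNCCAC match, 137 bases before the start. The Ggps1 window (chr13:14063439-14063738, minus strand) held 3 CCAAT matches, and the windows of Srebf2 (chr15:82147019-82147318, plus strand) and Soat1 (chr1:156474279-156474578, minus strand) 1 each. CCAAT occurred in 24 of the 35 member windows (68.6%), against 12289 of 32851 promoter windows of all genes (37.4%). It occurred in 16 of 20 windows of synthesis enzymes and in 8 of 15 windows of the other members (80% and 53.3%). TCACNCCAC occurred in 1 of 35 member windows (2.86%) and in 408 windows of all genes (1.24%). A match is a string of letters and was not tested as a binding site.

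The expression order of the members was described in control mice, as the mean log2 CPM per kb of spliced transcript. Hmgcs1, the cytosolic HMG-CoA synthase that starts the mevalonate route, was the most abundant of the 33 in the mPFC of B6 mice (6.383), followed by Msmo1, a C4-methylsterol oxidase (6.12), and Cyp46a1, the neuronal cholesterol 24-hydroxylase (5.20). In the vHPC the order was Msmo1 (5.89), Cyp46a1 (5.67) and Hmgcs1 (5.35). In the BNST it was Cyp46a1 (6.64), Srebf2 (5.39), the gene of the SREBP that drives sterol synthesis, and Nr1h2 (4.64), which encodes the oxysterol receptor LXR beta. Idi1, isopentenyl diphosphate isomerase, was lowest in every region (1.44 in the mPFC, 0.47 in the vHPC and 0.51 in the BNST). Reads of Idi1 may be mixed with those of a neighbour, since 9.22% of its exon bases overlap an opposite-strand gene and the strand setting of the counting is not given in the sources used here.

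The order of members differed more between regions than between strains. Across the 33 genes, Spearman's rho of the per-kb level between B6 and D2 controls was 0.851 for vHPC, 0.969 for mPFC and 0.948 for BNST. Between regions of B6 controls it was 0.808 for mPFC with vHPC, 0.684 for BNST with vHPC and 0.653 for BNST with mPFC. In D2 controls these were 0.838, 0.705 and 0.737, the first close to the vHPC value between strains. Genes are not independent replicates, and the regions were made with different library kits and normalized separately, so tissue and kit cannot be told apart.

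**Figure D1:**
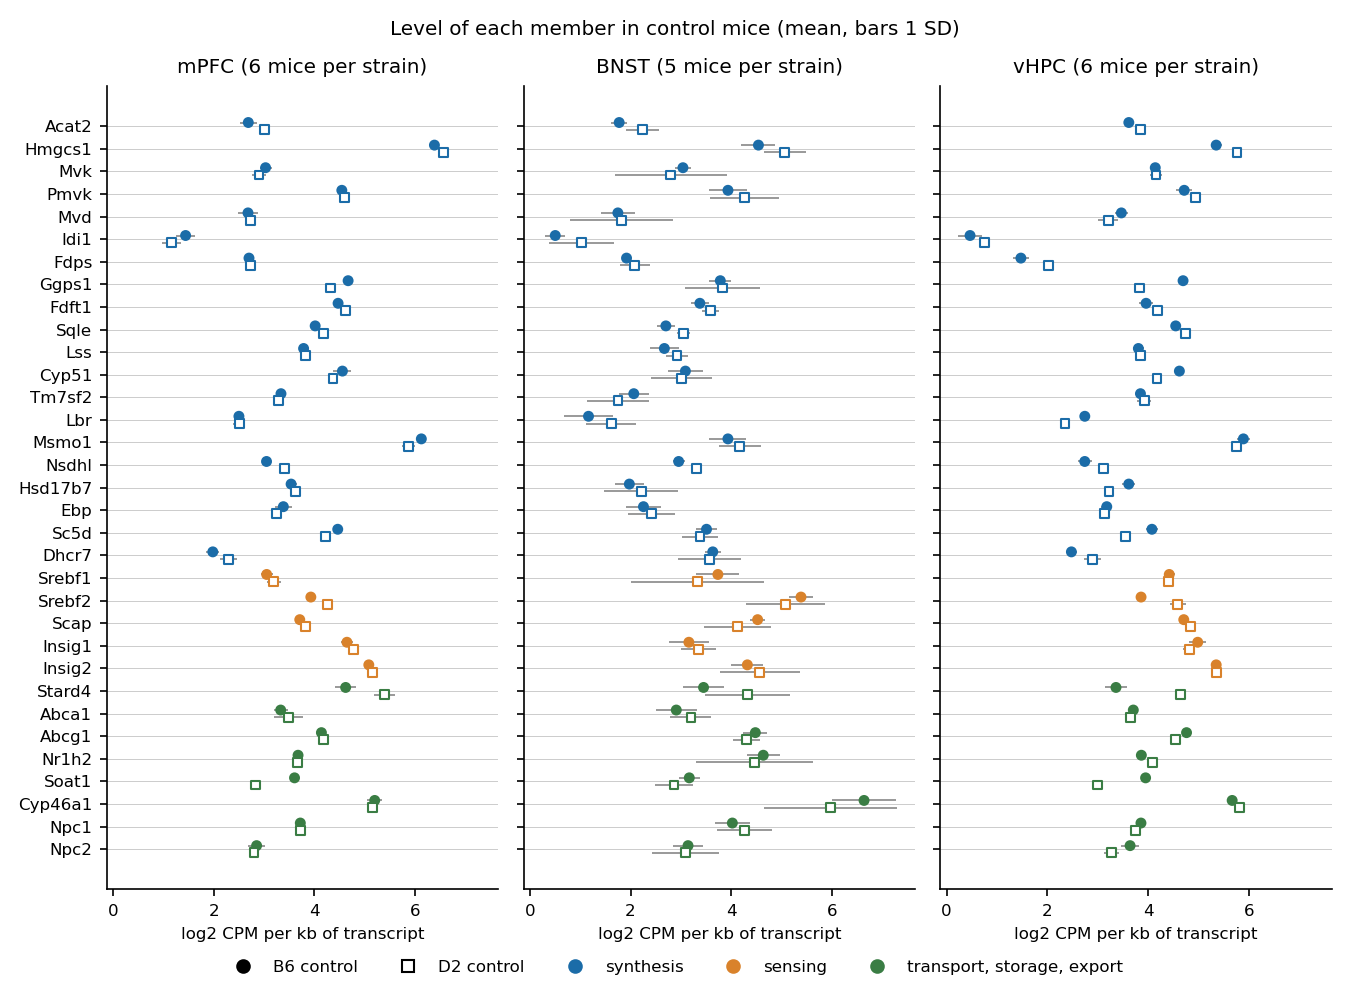
Level of each of the 33 members in control mice (x axis, log2 CPM per kb of transcript), 1 panel per region, with B6 as filled circles and D2 as open squares; bars are 1 SD over mice. Hmgcs1, Msmo1 and Cyp46a1 lie at the upper end in the mPFC and vHPC, and Idi1 lies at the lower end in all 3 regions.

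Baseline strain difference was the first comparison, D2 controls against B6 controls. In the mPFC, 11 of 33 members (33.3%) passed the test, 6 higher and 5 lower in D2, where 13.4% of all 18946 genes were called higher and 14.4% lower. In the vHPC, 22 of 33 (66.7%) passed, 13 higher and 9 lower, where 30.2% of all 19559 genes were called higher and 29.1% lower. In both regions the member share was near the background, and the medians over members (0.04 and 0.02) were near those over all genes (0.00 and 0.01). The members thus went both ways. The genes with the widest gaps were in storage and transport, and the synthesis enzymes were split between directions.

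Stard4, which carries cholesterol between membranes and feeds the pool that SCAP senses, was higher in D2. In the mPFC its lowest, median and highest values were 4.122, 4.599 and 4.64 log2 CPM in B6 controls and 5.04, 5.34 and 5.51 in D2 controls. In the vHPC they were 3.00, 3.34 and 3.503 in B6 and 4.43, 4.57 and 4.68 in D2. No D2 control overlapped a B6 control in either region. The log2 difference was 0.77 (SE 0.127, limma, adjusted p = 2.79e-05) in the mPFC and 1.29 (SE 0.0923, adjusted p = 7.41e-12) in the vHPC, where a difference of 1 is a 2-fold change.

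Soat1, the acyltransferase that turns free cholesterol into its stored ester, went the other way. In the mPFC its lowest, median and highest values were 6.02, 6.08 and 6.24 in B6 controls and 5.24, 5.32 and 5.43 in D2 controls. In the vHPC they were 6.35, 6.46 and 6.54 in B6 and 5.42, 5.47 and 5.58 in D2. The groups did not overlap in either region. Soat1 was lower in D2 by a log2 difference of -0.78 in the mPFC (SE 0.0489, limma, adjusted p = 1.62e-13) and -0.96 in the vHPC (SE 0.039, adjusted p = 5.16e-17). Among the 33 members it had the lowest adjusted p in both regions. No exon of Stard4 or Soat1 overlaps another gene.

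Among the sensing genes, Srebf2 was higher in D2 by 0.33 in the mPFC (SE 0.0642, limma, adjusted p = 0.000249) and 0.73 in the vHPC (SE 0.127, adjusted p = 2.44e-05). Its lowest, median and highest values were 6.03, 6.14 and 6.21 in B6 and 6.31, 6.48 and 6.55 in D2 controls of the mPFC, without overlap. Scap, the escort of SREBP, passed in the vHPC at 0.14 (adjusted p = 0.00489) and not in the mPFC (0.11, adjusted p = 0.132). It shares 13.2% of its exon bases with an opposite-strand gene. Srebf1, whose main product drives fatty acid synthesis, and the retention factors Insig1 and Insig2 did not pass in either region.

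Of the 20 synthesis enzymes, 4 were higher and 4 lower in the mPFC of D2 mice. Nsdhl, a sterol C4 decarboxylase, was higher by 0.35 (SE 0.0477, limma, adjusted p = 1.11e-06), as were Acat2, the thiolase that makes acetoacetyl-CoA (0.32), Dhcr7, which completes cholesterol by reducing 7-dehydrocholesterol (0.31), and Sqle, the squalene epoxidase (0.17). Lower were Ggps1 (-0.35, SE 0.0333, adjusted p = 1.24e-09), Sc5d, the lathosterol desaturase (-0.25), Msmo1 (-0.25) and Idi1 (-0.28). The Sqle call was lost in 7 of 12 fits that left out 1 mouse (limma, adjusted p up to 0.0912). The Msmo1 call was lost in 2 of 12. Ggps1 is a branch enzyme: it makes the geranylgeranyl group that is attached to small GTPases, not a sterol. Its B6 control values in the mPFC ran from 5.90 through a median of 5.97 to 6.03, and its D2 control values from 5.51 through 5.61 to 5.68. Of the Ggps1 exon bases, 5.44% overlap Arid4b on the opposite strand.

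In the vHPC, 8 synthesis enzymes were higher and 6 lower in D2. The higher ones were Fdps, the farnesyl diphosphate synthase, Hmgcs1, Dhcr7 (0.42), Nsdhl (0.37), Idi1, Fdft1, the squalene synthase (0.23), Acat2 (0.22) and Sqle (0.19). Fdft1 shares 18.3% of its exon bases with Ctsb on the opposite strand. Fdps ran from 1.66 through a median of 1.84 to 2.08 in B6 controls and from 2.296 through 2.42 to 2.54 in D2 controls, a difference of 0.56 (SE 0.0895, limma, adjusted p = 8.62e-06), and 26.7% of its exon bases are shared with a same-strand gene model. Hmgcs1 was higher by 0.41 (SE 0.0681, adjusted p = 1.24e-05) and shares 12.1% of its exon bases with an opposite-strand gene. The lower ones were led by Ggps1 (-0.87, SE 0.0523, adjusted p = 2.1e-13), whose values ran from 5.93 through 5.99 to 6.06 in B6 and from 5.04 through 5.14 to 5.24 in D2 controls. Sc5d (-0.53), Cyp51, the lanosterol demethylase (-0.44), Lbr, a sterol C14-reductase that also anchors the nuclear lamina (-0.39), and Hsd17b7, a 3-ketosteroid reductase (-0.39), were lower as well, and Mvd, the mevalonate diphosphate decarboxylase, by less (-0.26). Lbr shares 9.24% of its exon bases with Dnah14 on the opposite strand.

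Of the remaining transport and export genes, 4 passed in the vHPC and none in the mPFC. Cyp46a1 and Nr1h2 were higher in D2, by 0.15 and 0.21 (limma, adjusted p = 0.00292 and 0.000162). Npc2, which hands cholesterol out of lysosomes, was lower at -0.38, and Abcg1, an exporter to lipoproteins, at -0.22 (adjusted p = 0.000104 and 1.47e-07). Npc1, the membrane partner of Npc2, and Abca1, the other exporter, did not pass in either region. Whether mPFC and vHPC differed from each other was not tested.

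Groups of control mice did not overlap for 9 of 33 members in the mPFC, 5 above and 4 below in D2 (5.13% and 6.59% of all genes), and for 19 of 33 in the vHPC, 12 above and 7 below (18.9% and 17.8% of all genes). Of the 11 members called in the mPFC, 10 were also called in the vHPC, which is 90.9% of the mPFC calls and 45.5% of the vHPC calls. The direction was the same for 9 of the 10. Idi1 was the exception, at -0.28 in the mPFC (adjusted p = 0.0302) and 0.28 in the vHPC (limma, adjusted p = 0.0199). Its lowest, median and highest values were 2.87, 2.99 and 3.34 in B6 and 2.46, 2.79 and 2.93 in D2 controls of the mPFC, where the groups overlapped, and 1.73, 2.19 and 2.26 in B6 and 2.26, 2.33 and 2.44 in D2 controls of the vHPC, where the groups touched without overlap. The mPFC call of Idi1 was lost with quantile normalization, with library set as a term and with only the groups compared (limma, adjusted p from 0.0588 to 0.0634), and without B6 control replicate 3 or 4 or D2 control replicate 1, 4 or 5, at differences from -0.22 to -0.28. Of the control mice, 3 gave both tissues.

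**Figure D2:**
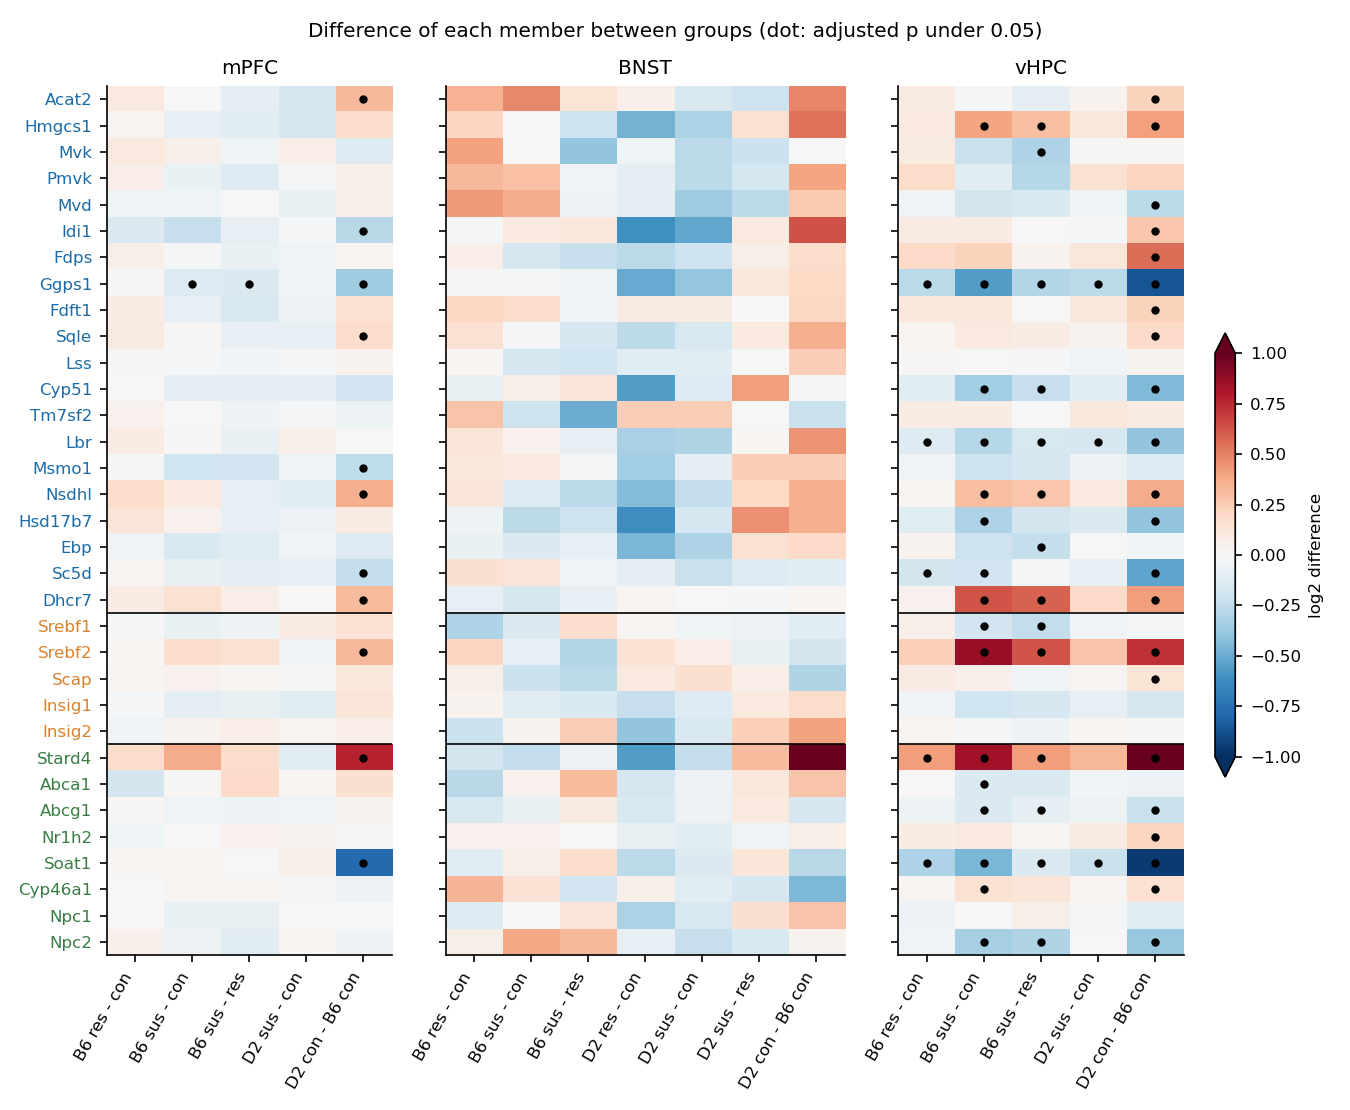
Log2 difference of each of the 33 members (rows, by role) in each comparison (columns, by region), from blue (lower) to red (higher); a dot marks an adjusted p under 0.05. Stard4 and Srebf2 stand out as higher and Soat1 and Ggps1 as lower in D2 controls of the mPFC and vHPC, and no member carries a dot in the BNST.

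The strain values were also fitted with library set as a term and set beside OLG markers. With library preparation set as a term, Stard4 differed by 0.80 and Soat1 by -0.77 in the mPFC, and both passed. In the vHPC only 4 members passed with that term: Stard4 (1.92), Soat1 (-1.07), Ggps1 (-0.82) and Sc5d. Among the members that lost their call, the difference was larger for Srebf2 (0.98), Hmgcs1 (0.74), Fdps (0.81) and Abcg1 (-0.29), and smaller for Nsdhl (0.30), Nr1h2 (0.11), Lbr (-0.17) and Hsd17b7 (-0.12), while the median SE over all genes went from 0.0803 to 0.286. The 12 OLG markers were all lower in D2 controls in both regions, with medians of -0.87 and -1.22. Their mean level ranged from 5.91 to 6.90 in B6 controls and from 5.33 to 5.93 in D2 controls of the mPFC, and from 7.02 to 7.20 and from 5.52 to 6.23 in the vHPC. No OLG marker was near 0. In the vHPC the 5 choroid plexus and 5 endothelial markers were lower in D2 controls as well, with medians of -2.37 and -0.56, and microglial markers in 5 of 6 cases (median -0.23). Neuronal markers had a median of 0.14. The part of these in the member values was not tested. Reads of both strains were aligned to a genome assembled from a B6 mouse, so that strain differences in expression and in read alignment cannot be told apart.

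In the BNST, 0 of 33 members passed between the strains by edgeR's quasi-likelihood test (2.51% of all 17515 genes did, and DESeq2 called 660), and 6 had an unadjusted p under 0.05. Stard4 was again at the top, at 1.02 (SE 0.296, adjusted p = 0.0657), and it passed with DESeq2 (1.05, adjusted p = 0.0205), the single member to do so. Its values were 3.26, 3.65, 3.24, 2.81 and 3.85 in B6 controls and 3.39, 5.1899, 4.26, 3.39 and 4.96 in D2 controls. The lower 2 D2 values lay within the B6 range. Leaving out B6 control replicate 5 gave 1.16 (adjusted p = 0.048), leaving out D2 control replicate 1 gave 1.195 (adjusted p = 0.01608), and leaving out D2 control replicate 4 gave 1.196 (adjusted p = 0.018), whereas without D2 control replicate 2 it was 0.75 (adjusted p = 0.21). Hmgcs1 passed as well without D2 control replicate 1.

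Soat1 had the lowest statistic in that comparison and did not pass (-0.28, edgeR, adjusted p = 0.486). Its values were 5.704, 5.34, 5.62, 5.75 and 5.91 in B6 controls and 4.83, 5.601, 5.41, 5.14 and 5.82 in D2 controls, which overlapped. Nsdhl was the single member whose groups did not overlap, D2 being above (1.44% of all genes): 3.88 to 4.18 in B6 and 4.36 to 4.57 in D2 controls, a difference of 0.35 (edgeR, adjusted p = 0.19). Of the synthesis enzymes, 17 of 20 had a positive difference, with a median of 0.25 beside 0.04 for all genes. D2 control replicate 2 stood apart from the other 4 D2 controls in members of every role. Srebf2 was at 5.87 where the others ran from 7.49 to 7.71, Mvk, the mevalonate kinase, at 1.25 where they ran from 3.51 to 3.996, and Nr1h2 at 3.37 where they ran from 5.77 to 6.19. Ggps1 was higher in that mouse, at 6.28 beside 4.44 to 5.37. Without it, 16 of 20 synthesis enzymes had a positive difference between the strains, with a median of 0.26. All 12 OLG markers were then higher in D2 controls (median 0.59), with 0 called. The median SE of a member was 0.226 in the BNST and 0.067 in the mPFC.

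Defeated and control B6 mice were compared next. Among B6 mice of the vHPC, library preparation set and stress cannot be told apart, as described below. In the vHPC of susceptible B6 mice, 16 of 33 members (48.5%) passed against controls, 6 higher and 10 lower, beside 20.5% and 20.1% of all genes. Members that rose were the sterol regulator Srebf2, the carrier Stard4, Dhcr7, Hmgcs1, Nsdhl and Cyp46a1. Members that fell were Ggps1, Soat1, Cyp51, Npc2, Hsd17b7, Lbr, Sc5d, Srebf1, Abcg1 and Abca1. Of the 20 synthesis enzymes 3 rose and 5 fell, of the 5 sensing genes 1 rose and 1 fell, and of the 8 transport and export genes 2 rose and 4 fell. The medians were -0.06, -0.02 and -0.07, beside -0.01 for all genes. B6 controls are shared between this and the strain comparison.

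Srebf2 in the vHPC ran from 5.93 through a median of 6.05 to 6.16 in B6 controls and from 5.82 through 6.21 to 6.92 in resilient mice, and was 6.84, 7.11 and 6.80 in the 3 susceptible mice. All susceptible mice lay above all controls, and the lower 2 of them within the upper end of the resilient range. The difference was 0.87 against controls (SE 0.155, limma, adjusted p = 0.000134) and 0.63 against resilient mice (adjusted p = 0.00664). Resilient mice did not pass against controls (0.24, adjusted p = 0.216).

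Stard4 ran from 3.00 through 3.34 to 3.503 in controls and from 3.47 through 3.65 to 4.06 in resilient mice, and was 4.119, 4.23 and 4.003 in susceptible mice. Susceptible mice lay above all controls, and the lowest of them below the highest resilient mouse. It rose by 0.42 in resilient mice (limma, adjusted p = 0.00155) and by 0.84 in susceptible mice (SE 0.113, adjusted p = 4.06e-06), and the latter exceeded resilient mice by 0.42 (adjusted p = 0.00947). It was the single member that passed between susceptible and control mice with library set as a term (1.42, adjusted p = 0.0209).

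Soat1 ran from 6.35 through 6.46 to 6.54 in controls and from 6.07 through 6.15 to 6.19 in resilient mice, and was 5.94, 6.01 and 6.04 in susceptible mice. The 3 groups did not overlap. It fell by 0.31 in resilient mice (limma, adjusted p = 1.14e-06) and by 0.45 in susceptible mice (SE 0.0478, adjusted p = 9.7e-08). With library set as a term the susceptible difference was -0.52 and did not pass (adjusted p = 0.0547).

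Ggps1 ran from 5.93 through 5.99 to 6.06 in controls and from 5.57 through 5.72 to 5.89 in resilient mice, and was 5.52, 5.35 and 5.42 in susceptible mice, again without overlap. It fell by 0.27 in resilient mice (limma, adjusted p = 0.000479) and by 0.56 in susceptible mice (SE 0.0641, adjusted p = 3.55e-07). Stard4, Soat1 and Ggps1 thus lay between control and susceptible levels in resilient mice, each step passing the test in the main fit. With sequencing set as a term the Stard4 step from control to resilient mice did not pass (0.28, limma, adjusted p = 0.29). With only the groups compared, Soat1 and Ggps1 did not pass from resilient to susceptible mice. Leaving out 1 mouse lost that step for Soat1 in 2 of 11 fits and for Stard4 in 1 of 11.

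Dhcr7 and Hmgcs1 were higher in susceptible mice than in both other B6 groups. Dhcr7 ran from 3.78 through 3.87 to 4.04 in controls and from 3.64 through 3.82 to 4.395 in resilient mice, and was 4.48, 4.53 and 4.53 in susceptible mice, above every other B6 mouse. It rose by 0.63 against controls and by 0.59 against resilient mice (limma, adjusted p = 0.000414 and 0.00335). Hmgcs1 was 7.55, 7.46 and 7.47 in susceptible mice, over 6.96, 7.10 and 7.26 as lowest, median and highest in controls and a resilient range of 6.96 to 7.48, the upper end of which overlapped. It rose by 0.39 against controls (SE 0.0834, limma, adjusted p = 0.000715) and by 0.30 against resilient mice (adjusted p = 0.0112). Nsdhl rose by 0.30 and Cyp46a1 by 0.15 (adjusted p = 0.0112 and 0.0181).

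Other enzymes that act on lanosterol or later sterols fell: Cyp51 by 0.35, Hsd17b7 by 0.31, Lbr by 0.29 and Sc5d by 0.20 (limma, adjusted p from 0.00011 to 0.0228). Npc2 fell by 0.33, Srebf1 by 0.19, Abcg1 by 0.15 and Abca1 by 0.14. Groups did not overlap between susceptible and control mice for 16 of 33 members, 7 above and 9 below, beside 19.1% and 18.5% of all genes. Against resilient mice, 14 members passed (42.4%), 5 higher and 9 lower, beside 14.1% and 13.6% of all genes. The groups did not overlap for 8 of them, with Dhcr7 above (6.06% of all genes) and Ggps1, Soat1, Lbr, Npc2, Srebf1, Abcg1 and Mvk below (7.2%). Mvk (-0.31) and Ebp, a sterol isomerase (-0.24), fell in this comparison. Against controls they had differences of -0.22 and -0.21 and missed the threshold (limma, adjusted p = 0.142 and 0.0747), with every susceptible mouse below every control. The 14 members became 5, 4 and 9 when susceptible replicates 1, 2 and 3 were left out in turn, and 0 with library set as a term, where 0 of all genes were called and 4685 had an unadjusted p under 0.05 by limma. The differences under that term were 0.67 for Dhcr7, 0.78 for Srebf2, 0.47 for Stard4 and -0.31 for Ggps1, with adjusted p = 0.129 for each, and -0.08 for Soat1.

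Resilient mice differed from controls in 5 members (15.2%): Stard4 rose (4.94% of all genes did), and Soat1, Ggps1, Sc5d (-0.19) and Lbr (-0.13) fell (5.9% of all genes did). Resilient mice lay below all controls for Soat1 and Ggps1 (2.01% of all genes). Without B6 control replicate 3, 3 members passed, and with library set as a term none did.

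**Figure D3:**
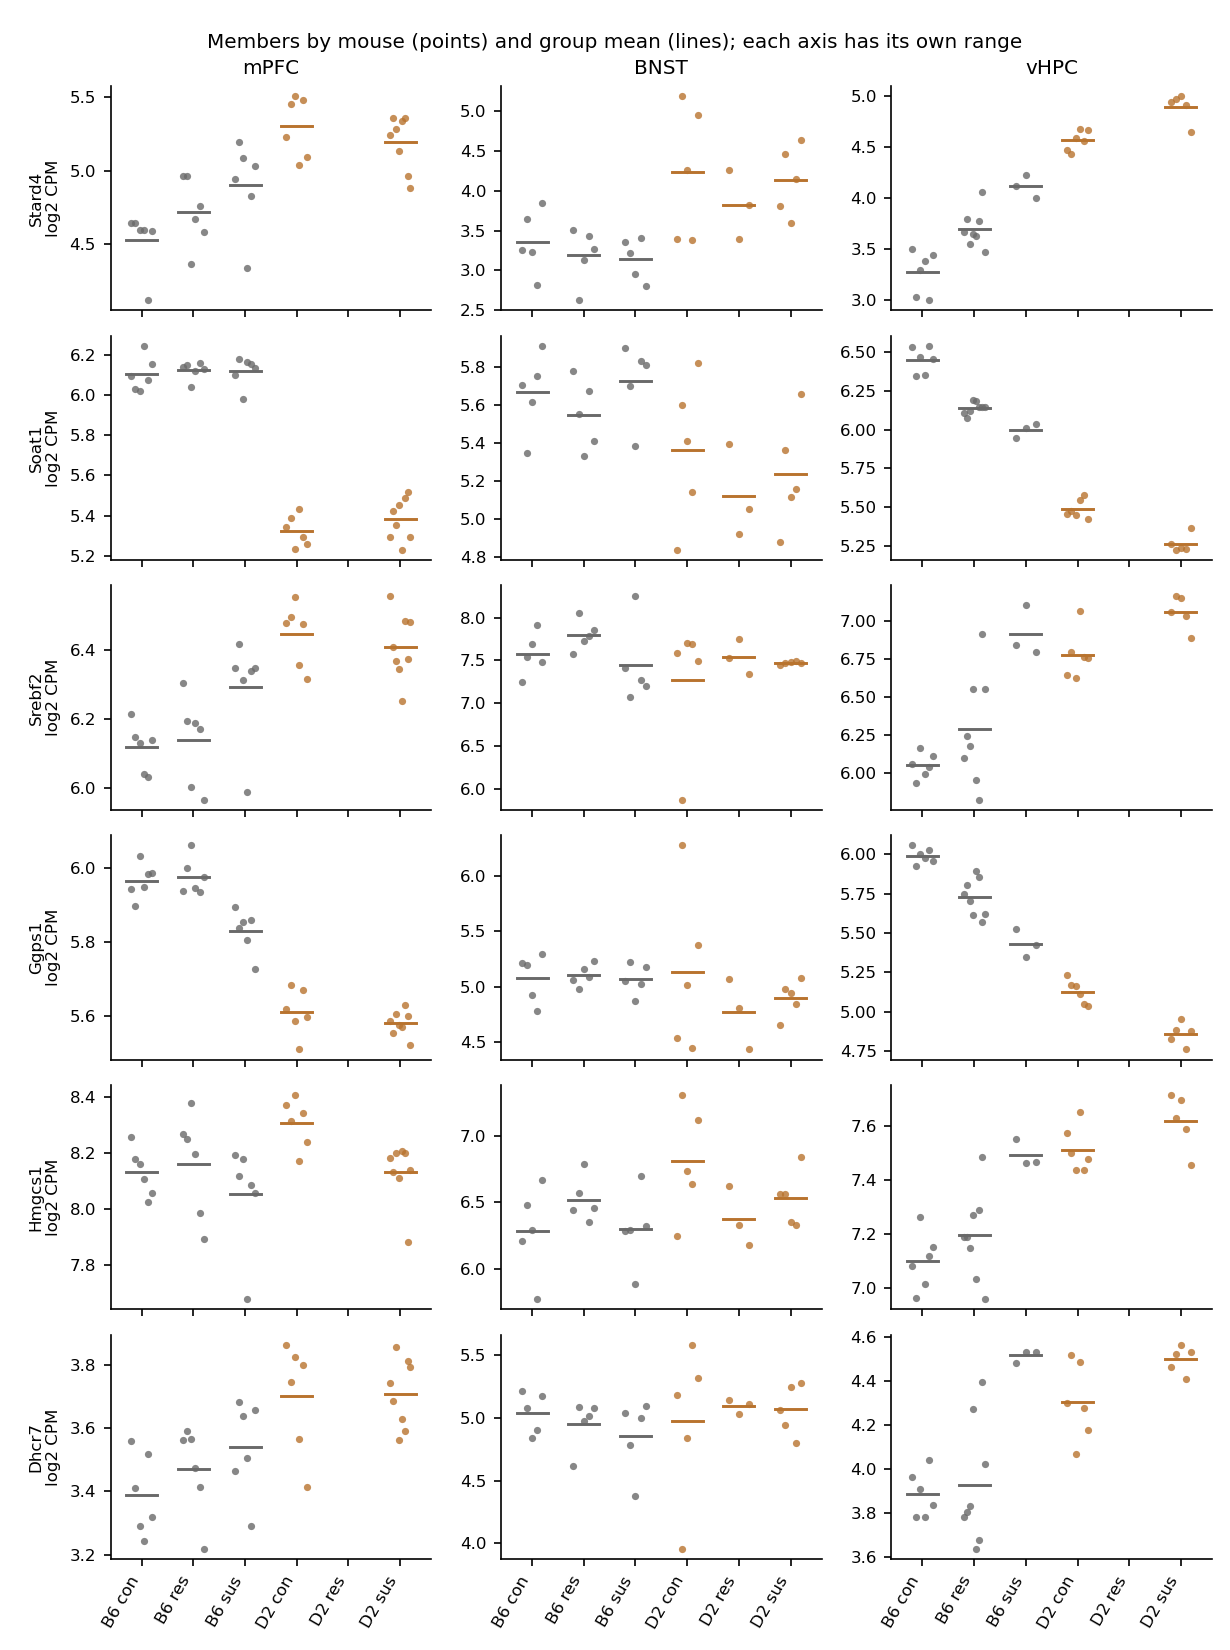
Level of Stard4, Soat1, Srebf2, Ggps1, Hmgcs1 and Dhcr7 in every mouse (y axis, log2 CPM, each panel with its own range) by region and group (x axis); points are mice and lines group means. In the vHPC, Stard4 rises and Soat1 and Ggps1 fall from control through resilient to susceptible B6 mice, and D2 controls lie beyond the susceptible B6 mice in the same direction.

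Several measures moved with these vHPC groups. No library preparation set held both a control and a defeated B6 mouse (0 of 9 sets), so among B6 mice set and stress cannot be told apart. The fit with library set as a term could estimate the B6 differences only because sets were linked through D2 mice. The authors had adjusted the values for sets before deposit. The 12 OLG markers all fell in susceptible mice (median -0.82). Their mean ranged from 7.02 to 7.20 in controls, from 6.47 to 7.13 in resilient and from 6.13 to 6.35 in susceptible mice. The mean of the choroid plexus markers ranged from 2.16 to 6.58 in controls, from 1.82 to 5.75 in resilient and from 1.25 to 2.59 in susceptible mice, with 1 of 5 markers called. The mean of the endothelial markers ranged from 5.496 to 5.77, from 5.34 to 5.73 and from 5.13 to 5.26 in the same order, with 4 of 5 called. Their part in the member values was not tested.

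In the mPFC of B6 mice 1 of 33 members (3.03%) passed between susceptible and control mice. This was Ggps1, which fell (2.22% of all genes passed). Its lowest, median and highest values were 5.90, 5.97 and 6.03 in controls, 5.94, 5.96 and 6.06 in resilient and 5.73, 5.85 and 5.90 in susceptible mice. Every susceptible mouse lay below every control (0.892% of all genes) and below every resilient mouse (0.987% of all genes, Pmvk being the other member). Ggps1 fell by 0.13 against controls (SE 0.0333, limma, adjusted p = 0.0337) and by 0.14 against resilient mice (adjusted p = 0.0306, where 2.02% of all genes passed).

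That call was not stable to the model or to single mice. The difference was -0.13 with library set as a term (limma, adjusted p = 0.1), -0.12 with the prefix of the mouse number (adjusted p = 0.63) and -0.13 when only the 2 groups were fitted (adjusted p = 0.182). Of the 6 susceptible mice, 5 shared a number prefix with 1 control. No member passed against controls without B6 control replicate 1, 3, 4 or 5 or susceptible replicate 2, 5 or 6, and 3 passed without susceptible replicate 4 (Ggps1, Srebf2 and Stard4). Against resilient mice Ggps1 was lost without resilient replicate 2, 3 or 4 or susceptible replicate 2, 5 or 6.

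Stard4 and Srebf2 had positive differences between susceptible and control B6 mice in the mPFC without passing (0.37 and 0.17, limma, adjusted p = 0.11 and 0.138). The median over synthesis enzymes was -0.03, which turned to 0.09 with the number prefix as a term, and 11 of 12 OLG markers fell with a median of -0.78. Their mean ranged from 5.91 to 6.90 in controls and from 5.41 to 6.11 in susceptible mice. The mean over the 20 synthesis enzymes was 4.89 ± 0.0552 (SD, n = 6) in controls and 4.85 ± 0.0768 (SD, n = 6) in susceptible mice, a gap smaller than the spread between mice. Against resilient mice 19 of 20 synthesis enzymes had a negative difference, with a median of -0.09, which turned to 0.03 with the number prefix as a term. Pmvk, the phosphomevalonate kinase, did not pass there (-0.13, limma, adjusted p = 0.128).

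**Figure D4:**
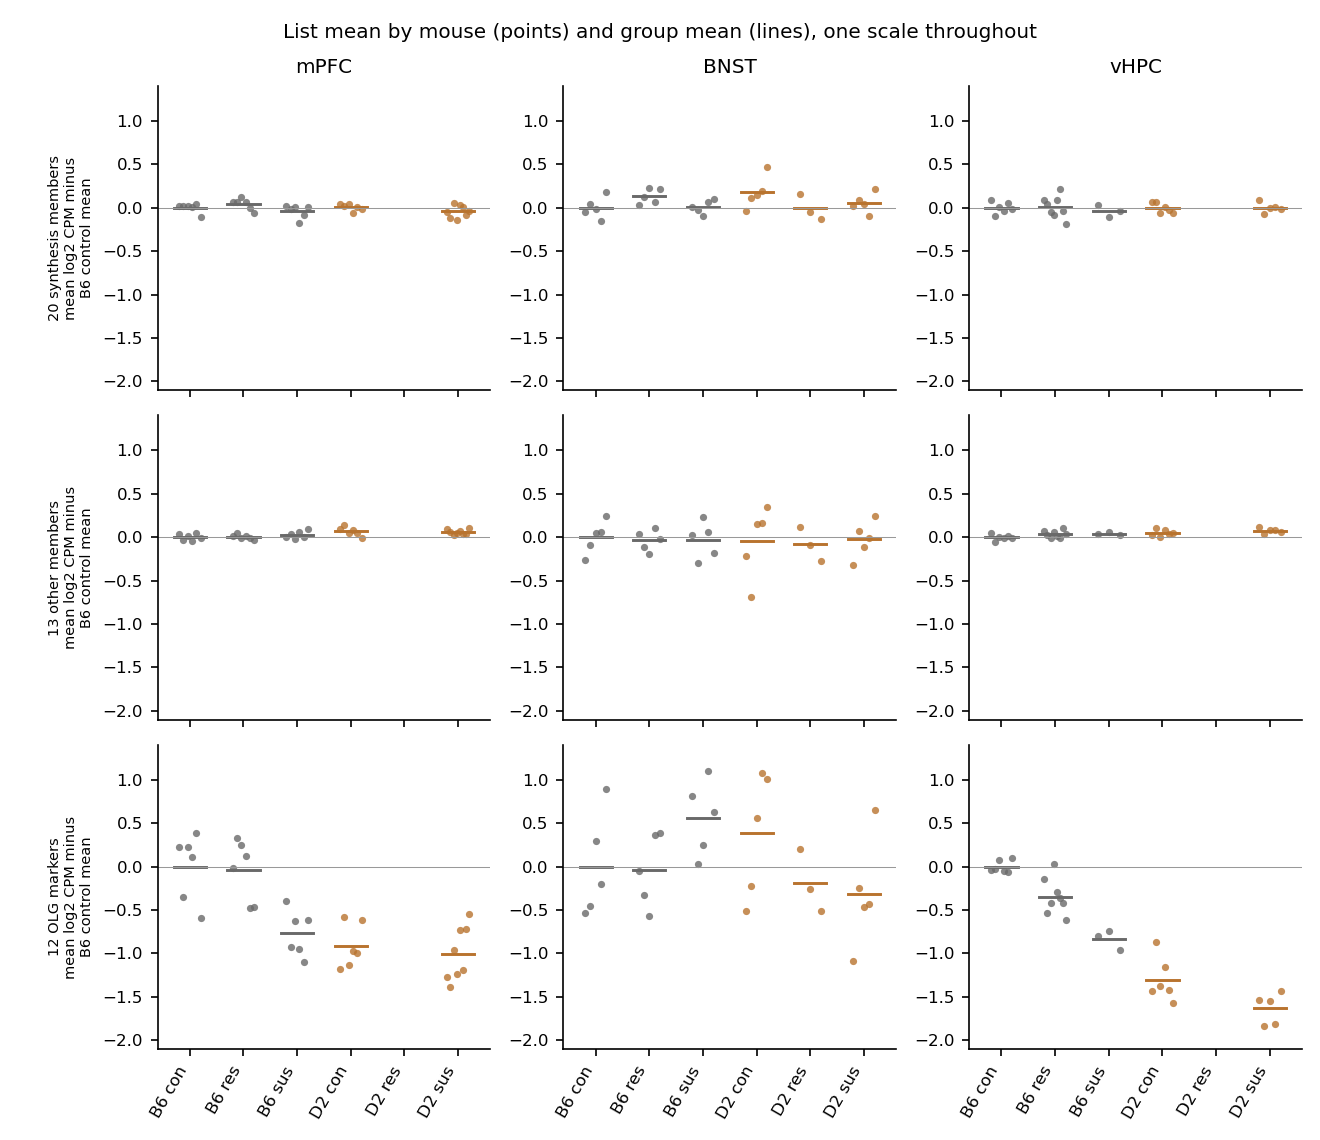
Mean log2 CPM over the 20 synthesis enzymes, the 13 other members and the 12 OLG markers in every mouse, minus the mean of the B6 controls of that region (y axis, 1 scale for all panels), by group (x axis). In the mPFC and vHPC the member means stay close to 0. In these regions, and not in the BNST, the OLG mean falls in susceptible B6 mice and lies lower still in D2 mice.

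Between resilient and control B6 mice of the mPFC limma called 0 of 33 members and 0 of all genes. Nsdhl had the highest statistic (0.19, unadjusted p = 0.000546, adjusted p = 0.999) and was the single member with an unadjusted p under 0.05, beside 731 of all genes. Idi1 had the lowest statistic, at -0.15.

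The same contrast was made in D2 mice. In the vHPC, 3 members fell in susceptible D2 mice (9.09%, beside 2.74% of all genes): Ggps1, Soat1 and Lbr. Ggps1 was 4.83, 4.88, 4.95, 4.76 and 4.88 in susceptible D2 mice, below 5.04, 5.14 and 5.24 as lowest, median and highest in D2 controls (-0.27, SE 0.0549, limma, adjusted p = 0.00379). Soat1 was 5.26, 5.22, 5.24, 5.23 and 5.37, below 5.42, 5.47 and 5.58 (-0.22, SE 0.0409, adjusted p = 0.00109). Lbr fell by 0.17 (adjusted p = 0.0233), a call that was lost with sequencing set, library set, number prefix or only the groups compared (limma, adjusted p = 0.116, 0.926, 0.0561 and 0.0544), and without D2 control replicate 1 or 6 or susceptible replicate 5. For all 3 genes susceptible mice lay below every control (2.6% of all genes).

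Stard4 was 4.94, 4.97, 5.00, 4.91 and 4.65 in susceptible D2 mice of the vHPC over 4.43, 4.57 and 4.68 in D2 controls. Of the susceptible mice, 1 lay within the control range, and the difference of 0.33 missed the threshold (SE 0.0968, limma, adjusted p = 0.0514). With library set as a term no member passed between these D2 groups. Of the OLG markers, 3 of 12 fell (median -0.31), and only 1 of 6 library sets held both a control and a defeated D2 mouse.

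Whether susceptibility acted differently in the strains was tested as an interaction. In the vHPC 0 of 33 members passed by limma, 9 had an unadjusted p under 0.05, and 0.782% of all genes were called. Soat1 (0.23, adjusted p = 0.0838) and Stard4 (-0.51, adjusted p = 0.104) led, each with a smaller difference in D2. When only the 4 groups compared were fitted, Stard4, Srebf2, Dhcr7 and Ggps1 passed, and after quantile normalization Stard4 alone did. Of all 19559 genes, 1158 and 434 were called under these settings, beside 153 in the main fit. In the mPFC 0 of 33 members passed, with 4 at an unadjusted p under 0.05 and 0 of all genes called (1766 at an unadjusted p under 0.05). Nsdhl was at -0.20 and Ggps1 at 0.10 there (limma, adjusted p = 0.441 and 0.507).

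Between susceptible and control D2 mice of the mPFC limma called 0 of 33 members and 0 of all genes, with 4 members and 734 of all genes at an unadjusted p under 0.05. Hmgcs1 had the lowest statistic (-0.18, adjusted p = 0.985) and Soat1 the highest (0.06). Of the synthesis enzymes 17 of 20 had a negative difference, with a median of -0.04. The OLG median was -0.08.

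The BNST gave no call in any stress comparison of either strain by edgeR. Members with an unadjusted p under 0.05 numbered 0 for resilient and 1 for susceptible B6 mice against controls, 0 between these, 4 for resilient and 0 for susceptible D2 mice against controls, 0 between these, and 2 for the interaction. DESeq2 called no member in these comparisons. Of all genes, edgeR called 0 in 6 of these 7 comparisons and 1 between susceptible and resilient B6 mice (0.00571%), with 230 to 2004 genes at an unadjusted p under 0.05, and DESeq2 called 0 to 223.

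Acat2 had the highest statistic between susceptible and control B6 mice of the BNST. Its lowest and highest values were 2.55 and 2.91 in controls and 2.93 and 3.52 in susceptible mice, without overlap (0.737% of all genes), at a difference of 0.48 (edgeR, adjusted p = 0.692). Resilient mice differed from controls by 0.34 (adjusted p = 1), the highest statistic there as well. In D2 mice Nsdhl stood at -0.43 in resilient against control mice (edgeR, adjusted p = 0.858), with 3.74, 4.05 and 4.16 as the 3 resilient values, all under the lowest control at 4.36 (0.896% of all genes). Idi1 stood at -0.52 in susceptible D2 mice (adjusted p = 0.865). None of these differences passed.

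In susceptible against control D2 mice of the BNST, edgeR's fitted differences were negative for 17 of 20 synthesis enzymes and all 8 transport and export genes, with medians of -0.22 and -0.13 beside -0.04 for all genes and -0.76 for OLG markers. Of the 5 sensing genes, 3 were negative (median -0.04). These counts rested in part on D2 control replicate 2. Without it, 14 of 20 synthesis enzymes and 6 of 8 transport and export genes were negative, with medians of -0.18 and -0.20. So were 4 of 5 sensing genes, with a median of -0.15. The mean log2 CPM of Cyp46a1 was higher in susceptible than in control D2 mice (7.24 against 7.05), as was that of Nr1h2 (5.57 against 5.42), against the sign of their fitted differences. Mean log2 CPM was also higher in susceptible D2 mice for Srebf2 (7.47 against 7.27) and Scap (6.46 against 6.21). For each of these genes D2 control replicate 2 held the lowest control value (Cyp46a1 4.75, Nr1h2 3.37, Srebf2 5.87 and Scap 5.02). Their medians were lower in susceptible than in control D2 mice. They were 7.209 against 7.593 for Cyp46a1, 5.575 against 5.81 for Nr1h2, 7.475 against 7.592 for Srebf2 and 6.46 against 6.482 for Scap. With the number prefix as a term the median over sensing and transport genes was 0.15. In resilient D2 mice the synthesis median was -0.26 and the sensing median 0.02. Without D2 control replicate 2 these medians were -0.24 and -0.10. In susceptible B6 mice the OLG median was 0.60 and the synthesis median 0.00. No OLG marker passed in these comparisons, and their part in the member values was not tested.

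Members named for the remaining BNST comparisons did not pass. Npc2 (0.32) and Nsdhl (-0.26) led between susceptible and resilient B6 mice, Cyp51 (0.42) and Acat2 (-0.21) between susceptible and resilient D2 mice, and Scap (0.37) and Acat2 (-0.64, edgeR, adjusted p = 0.257) in the interaction. Tm7sf2, a sterol C14-reductase, had the highest statistic in resilient and susceptible D2 mice against controls (0.25 and 0.24). Abca1 was lowest in resilient B6 mice (-0.28) and Lss, the lanosterol synthase, in susceptible B6 mice (-0.18).

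Members also varied together from mouse to mouse within groups. After group means were removed, the median Pearson r over pairs of the 20 synthesis enzymes was 0.440 for vHPC (28 mice), 0.255 for mPFC (32 mice) and 0.193 for BNST (28 mice), beside 0, -0.001 and 0 for all genes. Pairs with r over 0.5 numbered 78, 28 and 38 of 190, in the same order of regions. Among the 13 other members the medians were 0.049, 0.049 and 0.372, and among OLG markers 0.828, 0.904 and 0.797. Points of a region share library sets and depth.

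In the vHPC the tightest members were Acat2, Mvd, Cyp51 and Msmo1 (median r with the synthesis enzymes 0.65, 0.65, 0.64 and 0.64). Insig1, itself a target of SREBP, ran with them at 0.62. Srebf2 and Dhcr7, which rose in susceptible B6 mice, ran against them at -0.50 and -0.30. In the mPFC Fdft1, Acat2 and Insig1 were highest (0.45, 0.43 and 0.40) and Abca1 lowest (-0.31). In the BNST Hmgcs1 and Stard4 were highest (0.44 and 0.42) and Cyp46a1 lowest (-0.32). Npc1 had a median r of 0.81 with OLG markers in the BNST.

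**Figure D5:**
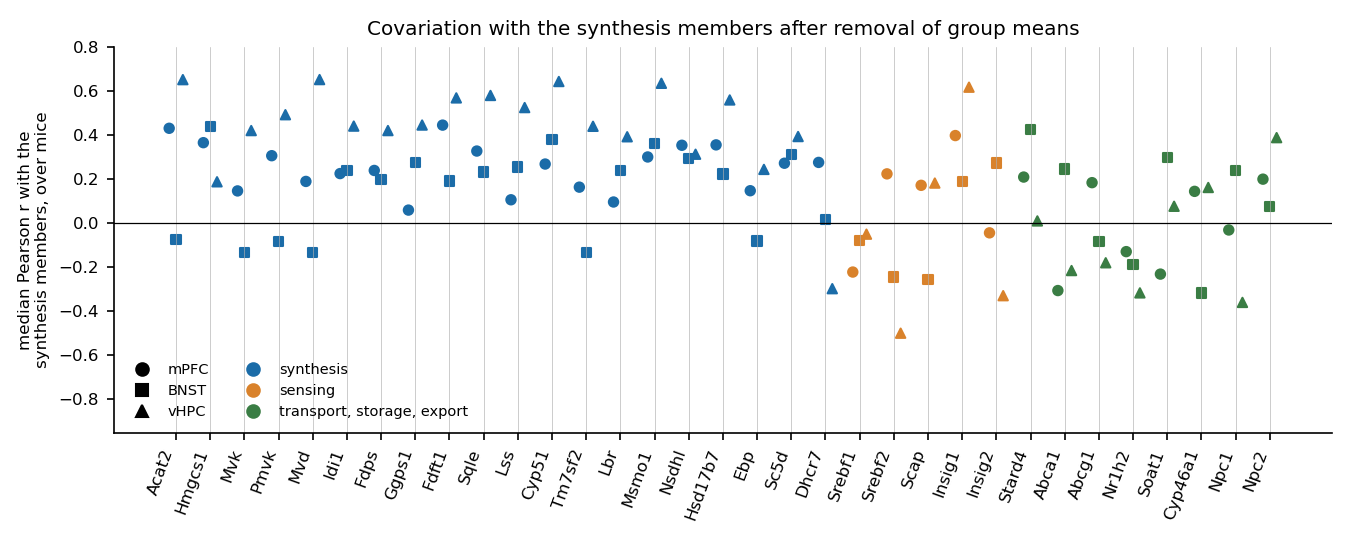
Median Pearson r (y axis) of each of the 33 members (x axis) with the 20 synthesis enzymes over the mice of a region, group means removed. Marker shapes give the region and colors the role. In the vHPC most synthesis enzymes and Insig1 lie above 0.3. Srebf2, Dhcr7, Npc1, Nr1h2, Insig2, Abca1, Abcg1 and Srebf1 lie below 0 there.

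Across all regions and comparisons 27 of 33 members were called at least once, all in the mPFC or vHPC. The 6 called in none were Lss, Tm7sf2, Pmvk, Insig1, Insig2 and Npc1.

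Genes of the same pathways outside the 33 were counted as lists. A further 14 sterol genes were measured, which include Nr1h3, Vldlr and Lipa. Of these, 5 were higher and 2 lower in D2 controls of the mPFC (13.4% and 14.4% of all genes). In the vHPC 4 were higher and 3 lower (30.2% and 29.1% of all genes). In the vHPC of B6 mice 4 rose and 2 fell in susceptible mice against controls, and 3 rose and 3 fell against resilient mice. Of all genes, 20.5% were called higher and 20.1% lower against controls, and 14.1% and 13.6% against resilient mice. Of 11 genes of fatty acid synthesis, such as Fasn, Acaca and Scd1, 2 were higher and 2 lower in D2 controls of the mPFC, 2 higher and 4 lower in those of the vHPC. In susceptible against control B6 mice 1 fell in the mPFC (2.22% of all genes were called), and 2 rose and 3 fell in the vHPC. In resilient B6 and in susceptible D2 mice of the vHPC 1 fatty acid gene each fell against controls (5.9% and 2.74% of all genes). Between susceptible and resilient B6 mice 1 rose (14.1% of all genes). Neither list had a call in the BNST.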

How the data were processed

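Bulk RNA-seq libraries (88) of mouse mPFC, BNST and vHPC were analysed by region. RNA was depleted of ribosomal RNA (Ribo-Zero for mPFC and vHPC, InDA-C for BNST), and libraries were made with ScriptSeq (mPFC), Nextera (vHPC) and Ovation (BNST) kits. The authors trimmed reads, removed PCR duplicates, aligned to GRCm38 with STAR and counted reads on gene exons with HTSeq. The strand setting is not given in the sources used here. For the mPFC and vHPC the deposited values are log2 CPM, which the authors had filtered and passed through voom, followed by ComBat on library batches (mPFC) or library and sequencing batches (vHPC). P values computed after such adjustment can be too small. The deposited BNST table holds read counts without batch adjustment.

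Members were matched through GENCODE (GRCm38). Symbols were found for 99.5% of mPFC, 99.1% of BNST and 99.6% of vHPC genes. BNST genes reaching 1 CPM in 6 or more libraries were fitted with edgeR 4.0.16 (TMM, robust quasi-likelihood). BNST levels are log2 CPM (TMM factors, prior count 0.5). The mPFC and vHPC values were fitted with limma 3.58.1 (robust eBayes, R 4.3.3). Each fit held all libraries of a region with a mean per group. Tests were two-sided, and Benjamini-Hochberg adjusted p under 0.05 over all genes was called. Levels between genes were divided by the median spliced length of coding transcripts. Lists were described by counts and medians. Tables were made with Python 3.11.15 and pandas 2.3.3.

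The fitting scripts were first tested on simulated data, with 200 genes changed by a log2 difference of 1 between susceptible and control B6 mice. Of these, 93% were recovered in the mPFC, 91% in the vHPC and 41.5% in the BNST. Counting error of mPFC and vHPC values is not known, as counts were available for the BNST only.

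Named in each comparison were the members past the threshold, at most 6 with the highest and 6 with the lowest statistic, or, where none passed, the highest and the lowest. Members named beyond this rule were picked after their values were seen. The members, the marker lists and the further sterol and fatty acid lists were chosen with earlier results of these data known. Alternatives were DESeq2 1.42.0, RLE factors, limma-voom or no filter (BNST), a mean log2 CPM of at least 1, no robust option or quantile normalization (mPFC, vHPC), batch terms, only the groups compared, and leaving out each mouse.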

Additional observations from a re-analysis of the deposited data

Results flagged for a closer look

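Of 102 member and group values examined in groups of 4 to 10 mice, 8 had a mouse that stood apart from the rest of its group by Dixon's test. Chance alone gives about 1 in 20. Stard4 was 4.122 in B6 control replicate 5 of the mPFC, where the next mouse was at 4.59, and 4.65 in D2 susceptible replicate 5 of the vHPC, next to 4.91. Soat1 was 5.37 in the same D2 mouse of the vHPC, above 5.26. Hmgcs1 was 7.88 in D2 susceptible replicate 7 of the mPFC, below 8.11. In the BNST, Scap was 5.02 in D2 control replicate 2, below 6.44, and 7.02 in B6 susceptible replicate 3, above 6.30. Abca1 was 6.99 in B6 control replicate 5 of the BNST, above 6.16, and Idi1 was 1.89 in D2 susceptible replicate 4, below 2.242.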

How the results depend on the processing

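No paired analysis was possible because the labels give no replicate numbers and, within a region, where all tests were made, each mouse belonged to a single group. Among members named in the text, 444 values under other settings, leaving out mice aside, kept their side of the threshold. Of the rest, 64 lost their call, 3 gained one and 1 changed direction. The last was Lbr in resilient B6 mice of the vHPC with the library set (0.12). A change of direction was counted only where a fit gave a call, so the 444 can include changes between fits without a call. With library set as a term, members called fell to 0 for susceptible B6 mice of the mPFC against controls and against resilient mice, and in the vHPC to 0 for resilient B6, 1 for susceptible B6 against controls, 0 against resilient, 0 for susceptible D2 mice and 4 between strains. With the mouse number prefix both mPFC counts were 0. With only the groups compared, both mPFC counts were 0, and in the vHPC 3 passed for resilient B6 mice, 2 between susceptible and resilient B6 mice (Stard4 and Npc2) and 4 for the interaction. The sequencing set left 2 for resilient B6 mice of the vHPC, and quantile normalization gave 1 for the interaction. DESeq2 called 1 between strains in the BNST. The prefix could not be fitted between the strains or for resilient D2 mice, because prefix and group could not be separated. Leaving out 1 mouse gave 8 to 11 members between strains in the mPFC, 0 to 3 for susceptible B6 mice against controls and 0 to 1 against resilient mice. It gave 0 to 2 between strains in the BNST. In the vHPC it gave 20 to 22 between strains, 3 to 6 for resilient and 12 to 17 for susceptible B6 mice against controls, 4 to 18 between these and 2 to 3 for susceptible D2 mice. The cause of these shifts was not tested. Depth limits only the BNST values in a known way; the spread between its mice was wider than in the other regions.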
